A study of Mus musculus with 14 samples.

Results

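The genes Slc40a1, Tfrc, Cd163 and Hmox1, which carry iron out of the macrophage, carry it in, take up hemoglobin and break down heme, were followed in every mouse macrophage library of the study. They were chosen by name, with earlier results of these data known, and all 4 were present among the 9474 genes of both the culture table and the marrow table. The culture experiment held macrophages grown for 7 days from marrow monocytes of C57BL/6 mice with CSF1, the macrophage growth factor, alone (culture control, 4 libraries) or with murine IL4 at 20 ng/mL, a cytokine of type 2 immunity, throughout (culture IL4, 4 libraries). CSF1 is given as 25 ng/mL in the growth protocol and 20 ng/mL in the design text. The marrow experiment held F4/80+ cells sorted from bone marrow 12 days after mice had received acute myeloid leukemia (AML) cells with an empty vector (marrow control, 3 libraries) or an IL4 cDNA (marrow IL4, 3 libraries). Both marrow groups thus received AML cells, and IL4 came from the AML cells and not as a measured dose. The labels give no age, no name for the AML cells and no genotype of the transplanted mice.

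Macrophages that clear old red blood cells recycle most of the body's iron. CD163 is the scavenger receptor that takes up hemoglobin bound to haptoglobin, HMOX1 (heme oxygenase) opens the heme ring and frees its iron, and ferroportin, the product of Slc40a1, is the known iron exporter of the cell membrane. TFRC, the transferrin receptor, brings in iron bound to transferrin and is abundant in dividing cells and red cell precursors. Iron also controls some of these mRNAs directly: when cell iron is low, iron regulatory proteins bind hairpins called iron-responsive elements (IREs), which blocks translation when the hairpin lies in the 5' UTR and protects the mRNA from decay when it lies in the 3' UTR.

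The IREs are shown because export and uptake carry them at opposite ends of the message. In the principal transcript of each gene (GENCODE M21, build mm10), the transcript strand was searched for an unpaired C, 5 bases of any kind, the loop CAGTGN and 5 bases that can pair with the 5 before the loop, with G-T pairs allowed. Slc40a1 (ENSMUSG00000025993.10, chr1:45908068-45926523, minus strand) held 1 match, in the 5' UTR within exon 1 of 8. Tfrc (ENSMUSG00000022797.16, chr16:32608920-32632794, plus strand) held 4 matches, all in the 3' UTR within exon 19 of 19. The ferritin genes Fth1 and Ftl1, which encode the iron storage shell, are printed for comparison, with 1 match each in the 5' UTR. Each line reads 5' to 3' with the loop in capitals.
Slc40a1, 5' UTR, chr1:45925464-45925493, minus strand: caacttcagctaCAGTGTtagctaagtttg
Tfrc, 3' UTR, chr16:32631219-32631248, plus strand: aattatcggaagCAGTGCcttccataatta
Tfrc, 3' UTR, chr16:32631598-32631627, plus strand: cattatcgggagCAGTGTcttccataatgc
Tfrc, 3' UTR, chr16:32631663-32631692, plus strand: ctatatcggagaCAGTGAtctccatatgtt
Tfrc, 3' UTR, chr16:32631710-32631739, plus strand: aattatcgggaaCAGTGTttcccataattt
Fth1, 5' UTR, chr19:9982732-9982761, plus strand: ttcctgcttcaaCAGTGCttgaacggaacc
Ftl1, 5' UTR, chr7:45459778-45459807, minus strand: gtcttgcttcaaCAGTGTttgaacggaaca

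Such a match was present in 21 of 20106 annotated 5' UTRs (0.104%) and in 111 of 20649 3' UTRs (0.538%). Neither UTR of Cd163 (ENSMUSG00000008845.9, chr6:124304656-124330527, plus strand) nor of Hmox1 (ENSMUSG00000005413.8, chr8:75093621-75100589, plus strand) held these letters. A match is a description of the sequence and says nothing about binding in these cells.

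The libraries were shallow, with 511229 to 784419 reads recovered from the deposited log2 values per library and a median of 23 to 41 reads per gene. In culture the summed level of the macrophage markers with recovered reads (12 of the 15 listed, with Emr1 listed also as Adgre1) was 12700 to 14600 RPM (recovered reads scaled so that every library has the same total) in controls and 7480 to 8990 with IL4. In marrow it was only 669 to 846 in controls and 572 to 1390 with IL4, while neutrophil markers (5 of 12 measured, among them S100a8, S100a9 and Ngp) summed to 61900 to 71000 and 46000 to 56600 RPM. Emr1, which encodes F4/80, had 1511 to 2415 reads in culture controls, 745 to 912 with IL4, 28 to 65 in marrow controls and 37 to 126 in marrow IL4 libraries. By these sums the marrow libraries, labelled as F4/80+ cells, held few macrophage marker reads and many neutrophil marker reads, and their part in the marrow results was not tested. The macrophage sum leaves out Itgam and Lyz2, which have log2 values only. Itgam had a mean log2 value of 9.83 in marrow controls and 9.63 in culture controls. For Lyz2 these means were 11.71 and 11.93, so the sum does not describe every macrophage marker. Monocyte markers (5 of 8 measured) summed to 5370 to 6640 RPM in marrow controls and 30100 to 31500 with IL4. Most of these reads were of Chil3, a gene also induced by IL4 (2205 to 2739 and 15723 to 24205 reads), while Ccr2 (449 to 530 and 23 to 46) and F13a1 (472 to 667 and 13 to 71) were lower with IL4. Eosinophil markers (4 of 6 measured) summed to 140 to 187 RPM in marrow controls and 397 to 533 with IL4. Among them Ear2 was also higher with IL4 in culture (0 to 2 reads in controls, 471 to 1328 with IL4). Progenitor and blast markers (2 of 7) summed to 69.0 to 93.9 RPM in marrow controls and 217 to 239 with IL4. The 1 measured B cell marker of 7 had 65.7 to 88.9 and 23.5 to 36.2 RPM. In bulk samples fewer cells of a type and less RNA per cell cannot be told apart. Arg1, a gene induced by IL4, had 0 to 2 reads in every control library and 94 to 486 reads in the marrow IL4 libraries. It had 8038, 8497, 6839 and 1714 reads in culture IL4 libraries 1 to 4, so that library 4 stood apart. Culture control 4 stood apart as well, with 142 reads of the division gene Mki67 against 445 to 625 in the other culture controls.

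The first question was how the export gene responded. In culture, Slc40a1 had 359, 265, 308 and 474 reads in control libraries 1 to 4 and 0, 1, 3 and 13 reads in IL4 libraries 1 to 4. The groups did not overlap, as in the 30.2% of all genes whose culture IL4 libraries all lay below the controls, and even IL4 library 4, the highest of its group, stayed far below the lowest control. Summed over libraries and scaled to their totals, controls held 87.9 times the reads of the IL4 libraries (95% exact interval for counting error only, 54.7 to 151.0), or 291 times (114 to 1070) without IL4 library 4, when 4 reads were left. On the deposited scale the mean fell from 11.85 ± 0.33 to 4.63 ± 2.15 (log2, SD, n = 4 each), a log2 fold change of -7.22 ± 0.83 (SE, limma with Benjamini-Hochberg adjustment over all genes, adjusted p = 0.000148). With so few reads this fitted change depends on the 0.5 reads added before the log, and it was -6.32 with a prior of 2 reads. It was -8.10 without IL4 library 4 and -6.42 without IL4 library 1, and passed in both cases. It was the third largest fall of the table, in which 40.5% of genes passed and 32.6% fell.

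In marrow, Slc40a1 had 153, 95 and 152 reads in controls 1, 2 and 3 against 112, 116 and 175 in the IL4 libraries. The groups overlapped, and all 3 IL4 libraries lay above control 2 and, in RPM, below controls 1 and 3. The log2 fold change was 0.069 ± 0.18 (SE, limma adjusted p = 0.832), with a 95% interval of -0.34 to 0.48, in a comparison in which 18.2% of genes passed. That interval does not reach the interval of the culture change (-9.07 to -5.37). The difference of the responses, culture minus marrow, was -7.29 ± 1.09 (log2, limma over all 14 libraries, adjusted p = 0.000325), the third most negative of all genes, where 23.1% of genes passed this test. Without culture IL4 library 4 it was -8.17, and without culture IL4 library 1 it was -6.49.

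Tfrc, the gene for transferrin uptake, rose with IL4 in culture and fell with it in marrow. In culture, Tfrc had 102, 99, 76 and 42 reads in controls 1 to 4 and 382, 315, 359 and 771 reads in IL4 libraries 1 to 4. The groups did not overlap (7.49% of all genes lay wholly higher with IL4 in culture), and library 4 was the lowest control and the highest IL4 library. The mean rose from 5.77 ± 0.60 to 8.18 ± 0.70 (log2, SD, n = 4 each), a log2 fold change of 2.41 ± 0.36 or 5.32-fold (SE, limma adjusted p = 0.000754), in a comparison in which 7.96% of genes rose. Without library 4 of both groups the log2 fold change was 1.79 (limma adjusted p = 0.000101).

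In marrow, Tfrc had 433, 437 and 499 reads in controls 1 to 3 and 85, 75 and 149 reads in IL4 libraries 1 to 3. The 3 controls lay close together and every IL4 library lay below all of them, as in 22.1% of all genes in marrow. The mean fell from 8.45 ± 0.06 to 6.30 ± 0.20 (log2, SD, n = 3 each), a log2 fold change of -2.15 ± 0.14, or 4.44-fold lower (SE, limma adjusted p = 4.59e-05), and 11.5% of all genes fell. The responses differed by 4.56 ± 0.48 (log2, culture minus marrow, limma adjusted p = 2.13e-05), a test in which 6.45% of all genes passed with a positive difference. A rise in culture with a fall in marrow, both past the threshold of an adjusted p below 0.05, was seen in 83 genes (0.876%).

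**Figure D1:**
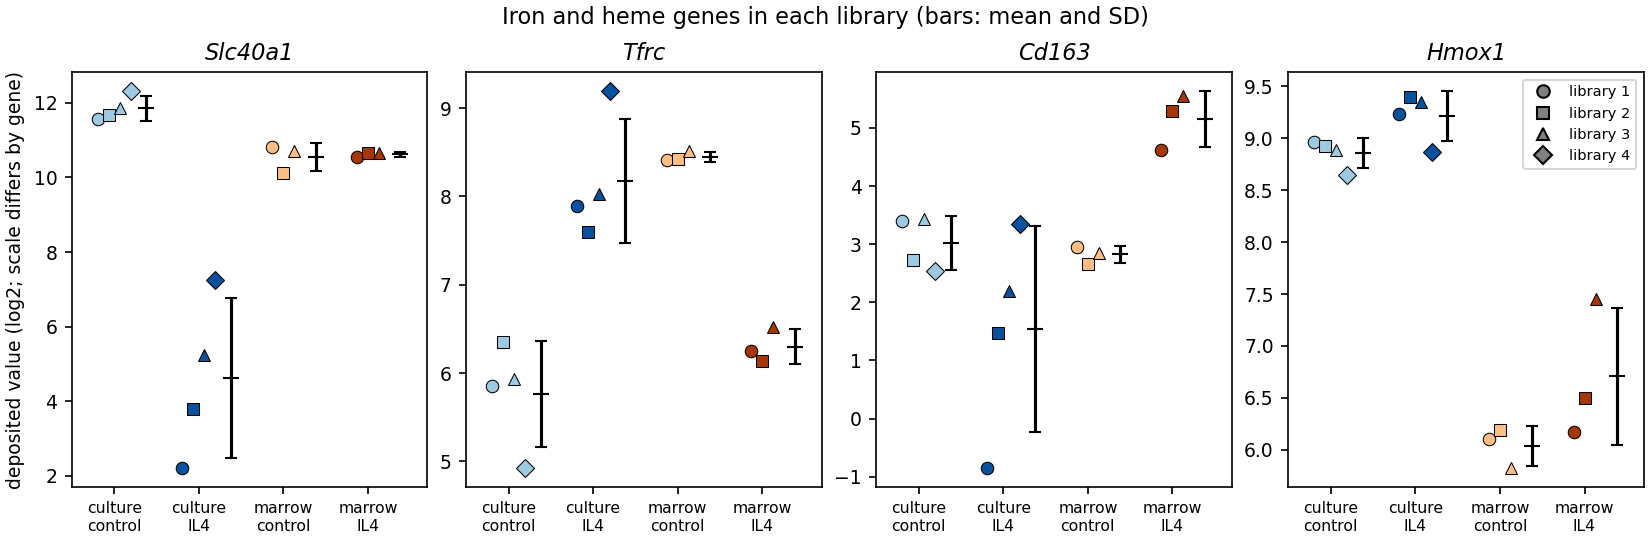
Deposited log2 value of each gene in every library of the 4 groups, with library numbers as symbols and the mean and SD beside each group; the log2 scale is set per gene, so heights are compared within a panel only. Slc40a1 is low in culture IL4 libraries alone, Tfrc is high in culture IL4 and marrow control libraries, Cd163 is highest in marrow IL4 libraries, and Hmox1 groups overlap within each experiment.

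Steap3, the reductase that prepares transferrin-borne iron for leaving the endosome, was the nearest to Tfrc of the 6368 genes compared. Its root mean square difference from Tfrc over the 14 libraries, each set against its own controls, was 0.624 (log2), against a median of 1.84 over those genes. Steap3 had 63, 55, 36 and 54 reads in culture controls and 160, 160, 157 and 183 with IL4, without overlap. It had 37, 45 and 45 reads in marrow controls and 4, 9 and 13 with IL4, also without overlap. Of all genes, 7.49% were likewise wholly higher with IL4 in culture and 22.1% wholly lower in marrow. The log2 fold changes were 1.60 ± 0.17 in culture (limma adjusted p = 9.24e-05) and -2.30 ± 0.31 in marrow (adjusted p = 0.00133), and they differed by 3.90 (adjusted p = 6.93e-06). Steap3 was picked here for its nearness to Tfrc in these same libraries, so these values describe it and lend Tfrc no separate support. The next nearest genes to Tfrc were Il6st, a signalling receptor subunit (2.02 and -1.30, root mean square difference 0.696), and Klf4, a transcription factor of monocytes (1.46 and -1.45, 0.807).

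Car2, the 1 other measured gene of the erythroid marker list, and most markers of cell division moved with Tfrc in marrow. Only Tfrc and Car2, a carbonic anhydrase abundant in red cell precursors but not confined to them, were measured of the 20 erythroid markers listed, and the globin genes were not analysed here. Car2 had 478, 483 and 520 reads in marrow controls and 20, 40 and 63 in marrow IL4 libraries, a log2 fold change of -3.66 (limma adjusted p = 8.0e-05). In culture it had 1, 0, 1 and 0 reads in controls and 22, 31, 13 and 6 with IL4, a log2 fold change of 4.11 (adjusted p = 0.00027). Car2 thus had the direction of Tfrc in both experiments. Division markers (15 of 15 measured) summed to 6840 to 7900 RPM in marrow controls and 3040 to 3590 with IL4, and 14 of 15 fell, against 11.5% of all genes. In culture 13 of 15 fell, against 32.6% of all genes, from 1100 to 3240 down to 565 to 996 RPM, while Tfrc rose. The part of red cell precursors or of dividing cells in the Tfrc result was not tested.

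**Figure D2:**
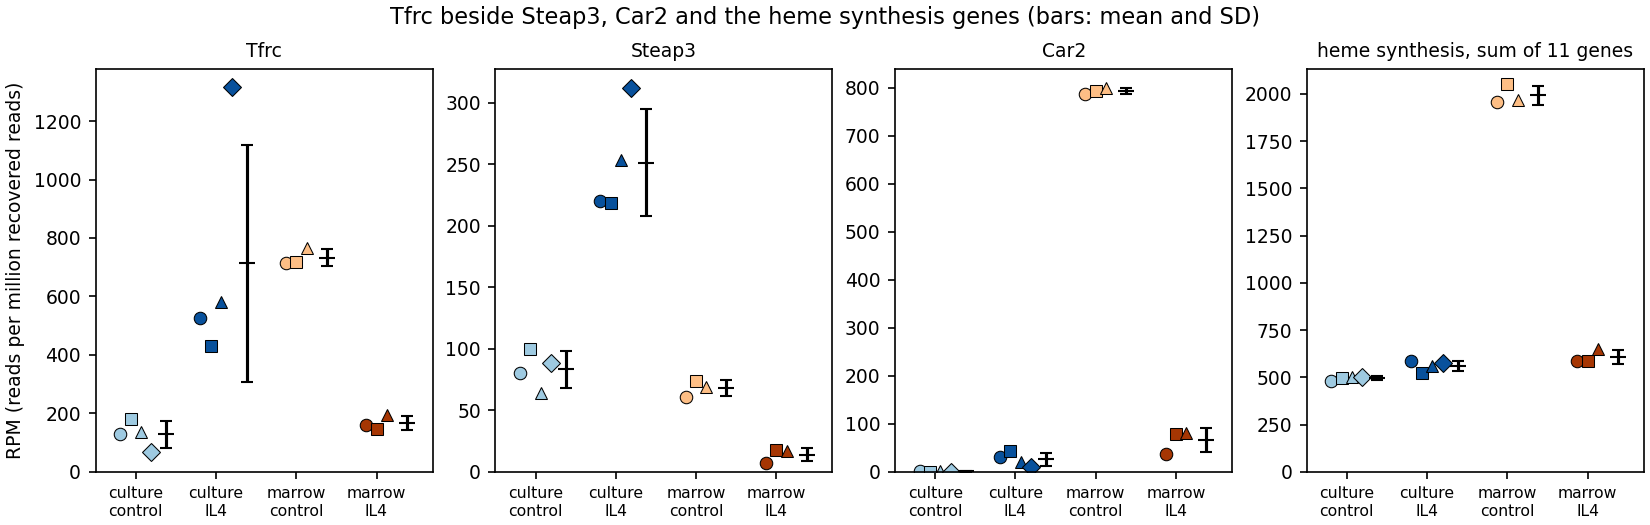
Levels in RPM of Tfrc, Steap3, Car2 and the sum of the 11 measured heme synthesis genes in every library, with the mean and SD of each group; all axes start at 0. In marrow all panels are lower with IL4 than in controls. In culture Tfrc, Steap3 and Car2 are higher with IL4, and the heme synthesis sum is slightly higher (480.6 to 504.2 in controls, 522.6 to 584.2 with IL4).

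The hemoglobin receptor gene Cd163 was scarce in all groups but responded in marrow. Cd163 had 5, 4 and 5 reads in marrow controls 1 to 3 and 15, 23 and 42 reads in IL4 libraries 1 to 3. Every IL4 library was above every control, as in 15.5% of all genes in marrow, and library 3, the deepest of the group, was highest. The mean rose from 2.82 ± 0.15 to 5.16 ± 0.48 (log2, SD, n = 3 each), a log2 fold change of 2.33 ± 0.27 (SE, limma adjusted p = 0.0006), against 6.7% of all genes that rose. The ratio of summed and scaled reads was 5.87 (95% exact interval 3.3 to 11.2, counting error only).

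In culture, Cd163 had 10, 4, 7 and 4 reads in controls 1 to 4 and 0, 2, 3 and 7 reads in IL4 libraries 1 to 4, and the groups overlapped. The log2 fold change was -1.48 ± 0.73 (SE, limma adjusted p = 0.126), with a 95% interval of -3.09 to 0.12, and its size depended on IL4 libraries 1 and 4. Without IL4 library 4 it was -2.09 (limma adjusted p = 0.0285), and without IL4 library 1 it was -0.69 (adjusted p = 0.253). At 3 reads or fewer in most IL4 libraries, a difference from the controls is at the limit of this depth. The responses of Cd163 differed by -3.82 ± 0.95 (log2, culture minus marrow, limma adjusted p = 0.0104), or by -4.42 and -3.02 without culture IL4 library 4 or 1.

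The genes nearest to Cd163 over the 14 libraries were C1qb, a complement subunit made by tissue macrophages (root mean square difference 0.869, median of the 6368 genes compared 1.57), 3110082I17Rik (0.894) and Als2cl (0.942). C1qb had 5, 4 and 5 reads in marrow controls and 31, 44 and 110 in marrow IL4 libraries, so that its groups did not overlap either, as in 15.5% of all genes. It was picked by this nearness, so its change lends Cd163 no separate support. Cd163, Slc40a1 and Hmox1 also belong to a list of markers of macrophages of erythroblastic islands, the marrow niches in which red cells mature. Of the 5 other measured genes of that list 4 rose in marrow, where 6.7% of all genes rose, and 1 did not pass. The risers were Siglec1, the sialic acid receptor (log2 fold change 2.10, limma adjusted p = 0.0146), Vcam1, an adhesion molecule (1.13, adjusted p = 0.0138), and the phagocytic receptors Axl (2.34, adjusted p = 0.00683) and Mertk (3.90, adjusted p = 0.00479). Siglec1 had 18, 13 and 8 reads in marrow controls and 23, 68 and 91 with IL4. In culture Siglec1, Axl and Mertk fell (-1.85, -4.56 and -1.48) and Dnase2a, a lysosomal nuclease, rose (0.51). In marrow, then, Cd163 had the direction of these 4 genes, and Slc40a1 and Hmox1 did not pass. The general macrophage list, which holds C1qb and Mertk, was split in marrow. Of its 14 measured genes 5 rose and 4 fell, against 6.7% and 11.5% of all genes. Csf1r (-1.17), Cd68 (-1.02), Fcgr1 (-2.70) and Lyz2 (-2.28) were the genes that fell. Centring left 3 falls, where 845 of all 9474 genes fell.

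Hmox1, the heme-degrading enzyme, did not pass in either experiment after adjustment over all genes. In culture it had 452, 302, 303 and 285 reads in controls 1 to 4 and 498, 560, 460 and 314 reads in IL4 libraries 1 to 4. The groups overlapped on the deposited scale through IL4 library 4, at 8.87, which lay below control libraries 1 to 3. The means were 8.86 ± 0.14 and 9.21 ± 0.24 (log2, SD, n = 4 each), and the log2 fold change of 0.36 ± 0.14 did not pass (SE, limma adjusted p = 0.0638). The median log2 fold change of all genes in culture was -0.36, and when libraries were centred on their medians Hmox1 passed with 0.72 (limma adjusted p = 0.00278). It also passed without IL4 library 4 (0.47, adjusted p = 0.0119).

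In marrow, Hmox1 had 44, 47 and 39 reads in controls 1 to 3 and 41, 49 and 145 reads in IL4 libraries 1 to 3. Library 3 alone was clearly above the controls, and the groups overlapped. The means were 6.04 ± 0.19 and 6.71 ± 0.67 (log2, SD, n = 3 each), with a log2 fold change of 0.67 ± 0.29 (SE, limma adjusted p = 0.145), which was 0.30 without IL4 library 3. The difference of the responses, -0.31 ± 0.33 (95% interval -1.02 to 0.40), did not pass (limma adjusted p = 0.536). The nearest genes to Hmox1 were Gpr65, a proton-sensing receptor (root mean square difference 0.218, median of the 6368 genes compared 0.675), Metrnl (0.226) and Eif3c (0.228).

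**Figure D3:**
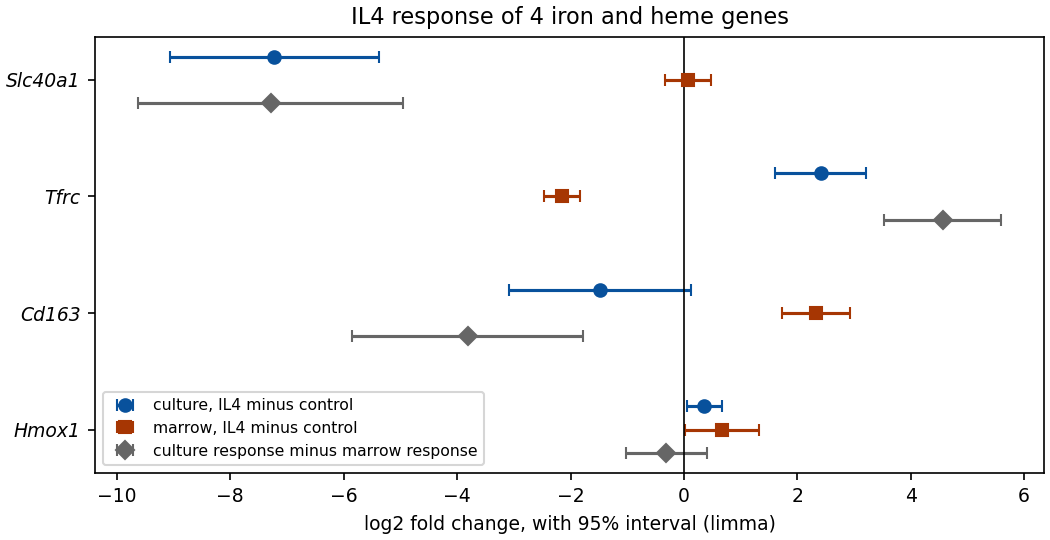
Log2 fold change with its 95% interval from limma for each gene in culture, in marrow and for the difference of both responses. The culture and marrow intervals lie on opposite sides of 0 for Tfrc, the marrow interval of Slc40a1 spans 0 (-0.34 to 0.48), and that of Cd163 in culture reaches 0.12. Those of Hmox1 lie just above 0 in culture (0.047 to 0.671) and in marrow (0.016 to 1.322). The intervals are not adjusted over all genes, and after adjustment Hmox1 did not pass in either experiment.

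The 4 genes were compared with one another as RPM per kilobase of the principal transcript, and their order changed with IL4 in both experiments. In culture controls Hmox1 was highest (mean 339.8), then Slc40a1 (168.1), Tfrc (26.29) and Cd163 (2.217). With IL4 in culture the order was Hmox1 (435.2), Tfrc (145.8), Slc40a1 (2.106) and Cd163 (1.108), and the last 2 overlapped between libraries. In marrow controls Tfrc led (149.7), followed by Slc40a1 (63.44) and Hmox1 (44.51), which overlapped at their edges, and Cd163 (1.701). In marrow IL4 libraries Hmox1 (76.56) and Slc40a1 (65.62) overlapped, above Tfrc (34.01) and Cd163 (9.652). Within single libraries the ratio of Tfrc to Slc40a1 per length was 0.061 to 0.258 in culture controls and 40.9, 82.5 and 217 in culture IL4 libraries 4, 3 and 2, while library 1 had no Slc40a1 read. It was 1.95 to 3.17 in marrow controls and 0.446 to 0.587 in marrow IL4 libraries. By this measure Tfrc exceeded Slc40a1 in the culture IL4 and marrow control libraries and lay below it in the culture control and marrow IL4 libraries. Whole reads were recovered with the same gene term in the culture and marrow libraries. Levels across the 2 experiments are described and were not tested.

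Beyond the 4 genes, the transport list held 11 measured genes. In culture 2 of 11 rose and 4 fell, beside rises in 7.96% and falls in 32.6% of all genes. The median log2 fold change was -0.37, against -0.36 over all genes. Centring gave 4 up and 3 down, where 1365 of all 9474 genes rose and 1205 fell. In marrow 1 rose and 5 fell (median -0.46, against -0.063 over all genes), where 6.7% and 11.5% of all genes rose and fell. Centring left 4 falls, where 845 of all 9474 genes fell. The riser in marrow was Trf, transferrin itself, named after its values were seen, with 45, 54 and 74 reads in controls and 89, 142 and 375 with IL4 (log2 fold change 1.62, limma adjusted p = 0.0101). In culture Trf had 528, 231, 316 and 1091 reads in controls and 2921, 2571, 2699 and 3220 with IL4 (2.57, adjusted p = 0.000516). Slc25a37 (mitoferrin 1), which brings iron into mitochondria for heme, fell in both experiments, by 1.80 ± 0.16 in culture (limma adjusted p = 3.6e-05) and by 2.03 ± 0.13 in marrow (adjusted p = 4.59e-05) on the log2 scale.

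For storage and sensing, 4 of 11 genes fell and 7 did not pass in culture (median -0.16). That share of falls was near the 32.6% of all genes. The split depended on scaling, with 4 up and 1 down after centring, where 1365 and 1205 of all 9474 genes rose and fell. Among the falls as deposited were Fth1, the ferritin heavy chain (-0.58, limma adjusted p = 0.0048), Nedd4l, a ubiquitin ligase (-1.06, adjusted p = 0.00366), and Fbxl5, the iron sensor that marks an iron regulatory protein for degradation (-0.55, adjusted p = 0.0127). In marrow 2 rose and 9 did not pass (median 0.12), where 6.7% of all genes rose. The risers were Ftl1, the ferritin light chain (0.74 ± 0.13, limma adjusted p = 0.00401), and Ncoa4, the receptor that delivers ferritin to the lysosome (0.73 ± 0.21, adjusted p = 0.0426). Fth1 in marrow had a log2 fold change of -0.35 that did not pass (adjusted p = 0.112). The response of Ftl1 differed between the experiments by -1.25 (log2, culture minus marrow, adjusted p = 0.000234).

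For heme uptake, breakdown and control, 4 of 15 genes rose and 6 fell in culture (median -0.18), against 7.96% and 32.6% of all genes. Centring gave 5 up and 5 down, where 1365 of all 9474 genes rose and 1205 fell. Maf, a transcription factor of resident macrophages, had 400, 354, 311 and 227 reads in culture controls and 24, 14, 17 and 12 with IL4. Its log2 fold change was -4.33 ± 0.23 (limma adjusted p = 1.27e-06). Hmox2, the constitutive heme oxygenase, fell (-0.97, limma adjusted p = 0.000627), with the heme-sensing repressor Bach1 at -0.80 (adjusted p = 0.00122). In marrow 4 fell and 11 did not pass (median -0.037), where 11.5% of all genes fell. Centring left 3 falls, where 845 of all 9474 genes fell. The falls were led by Lrp1, the receptor for heme bound to hemopexin (-2.83 ± 0.27, adjusted p = 0.000255), and Blvrb, a biliverdin reductase that is abundant in red cells (-2.33 ± 0.26, adjusted p = 0.000488). Lrp1 had 256, 410 and 315 reads in marrow controls and 27, 40 and 74 with IL4. In marrow, then, the hemoglobin receptor gene Cd163 rose and the hemopexin receptor gene Lrp1 fell. The heme exporter Flvcr1, listed as Mfsd7b, rose in culture (0.90, adjusted p = 0.00194) and fell in marrow (-0.73, adjusted p = 0.034), a call lost after centring (-0.63, adjusted p = 0.0642).

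Of the 6 pathway lists, heme synthesis had the largest share of genes moving one way. In marrow 10 of 11 genes fell and 1 did not pass, where 11.5% of all genes fell. The median log2 fold change was -2.23, against -0.063 over all genes. After centring 10 fell as well, where 845 of all 9474 genes fell. Cpox, coproporphyrinogen oxidase, had 208, 208 and 237 reads in controls and 16, 26 and 52 with IL4 (log2 fold change -2.88 ± 0.25, limma adjusted p = 0.000206). Fech, which inserts iron into the ring, had 124, 155 and 164 against 24, 24 and 35 reads (-2.35 ± 0.15, adjusted p = 4.59e-05). Neither gene's groups overlapped, as in the 22.1% of all genes that lay wholly lower with IL4 in marrow. The exception was Alas1, the first enzyme of the pathway in most cells, with 121, 133 and 124 reads in controls and 124, 89 and 158 with IL4 (-0.0088 ± 0.14, adjusted p = 0.976). The form of red cell precursors, Alas2, was not analysed here.

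Summed over the 11 genes, heme synthesis took 1958 to 2052 RPM in marrow controls and 586.8 to 652.4 in marrow IL4 libraries, the latter just above culture, where controls had 480.6 to 504.2 and IL4 libraries 522.6 to 584.2. In culture 1 gene rose and 3 fell (median -0.38), against 7.96% and 32.6% of all genes. After centring 2 rose and 9 did not pass, where 1365 of all 9474 genes rose and 1205 fell. The riser as deposited was Alas1, with 87, 37, 40 and 99 reads in controls and 220, 206, 149 and 145 with IL4 (1.47 ± 0.24, limma adjusted p = 0.00126). For 9 of 11 genes the difference of the responses passed, all with a positive sign (culture minus marrow), as in 6.45% of all genes. The levels of Car2 and of the division markers given above moved with this fall in marrow, and their part in it was not tested.

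**Figure D4:**
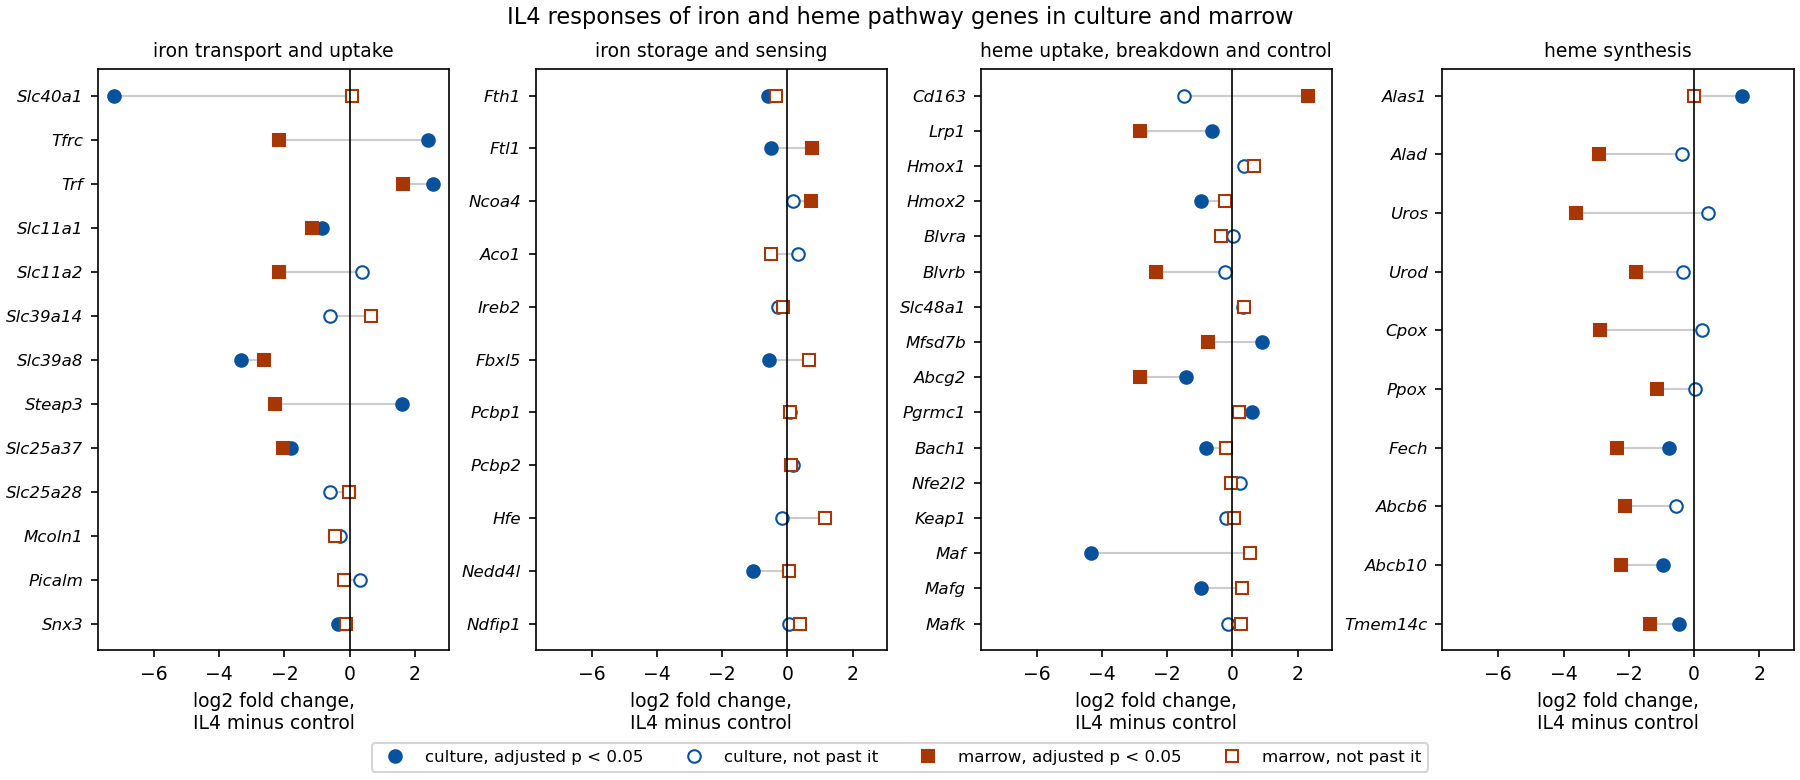
Log2 fold change of measured genes of 4 pathway lists in culture (circles) and marrow (squares), IL4 minus control, filled where the limma adjusted p is below 0.05. Heme synthesis genes lie at the left in marrow except Alas1, Slc40a1 lies at -7.22 in culture alone, and Tfrc and Steap3 lie on opposite sides of 0 in the 2 experiments.

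The remaining lists moved less uniformly. Of 16 iron-sulfur cluster genes 3 fell in culture (median -0.28), against 32.6% of all genes. Among them was Mms19, of the cytosolic assembly machinery (-0.62, limma adjusted p = 0.0258). After centring 2 rose and 1 fell, where 1365 of all 9474 genes rose and 1205 fell. In marrow 4 fell (median -0.26), against 11.5% of all genes, led by Glrx5, a glutaredoxin needed for cluster transfer (-2.12 ± 0.23, adjusted p = 0.000416). Centring left 2 falls in marrow, where 845 of all 9474 genes fell. Of 14 targets of NRF2, the oxidative stress factor that also drives Hmox1, 2 rose and 9 fell in culture (median -0.78). Of all genes, 7.96% rose and 32.6% fell. Gclm, of glutathione synthesis (-1.98), Taldo1, of the pentose phosphate pathway (-1.09), and Osgin1 (-1.78) had the smallest p in culture. After centring 2 rose and 6 fell, where 1365 of all 9474 genes rose and 1205 fell. In marrow 3 rose and 2 fell (median 0.17), against 6.7% and 11.5% of all genes, with Sqstm1, an autophagy adaptor, at 1.60 (adjusted p = 0.000111), Slc7a11, the cystine transporter, at 3.01 (adjusted p = 0.00395) and Prdx1, a peroxidase, at -0.76 (adjusted p = 0.00414).

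The genes nearest to Slc40a1 lay farther from it than those nearest to the other 3 genes. Id1, an inhibitor of transcription factors (root mean square difference 1.70), Itgal, an integrin chain (1.89), and Igfbp4 (1.94) came first, against a median of 3.83 over the 6368 genes compared. Id1 had 37, 35, 29 and 26 reads in culture controls, 1, 1, 0 and 2 with IL4, 18, 15 and 12 in marrow controls and 20, 14 and 29 in marrow IL4 libraries. The culture log2 fold changes of the 3 genes were -4.71, -5.02 and -4.12, each smaller in size than that of Slc40a1.

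The authors' deposited table for marrow gives folds of 1.05 for Slc40a1 (q = 0.869), 0.225 for Tfrc (q = 0.0189), 5.04 for Cd163 (q = 0.0351) and 1.59 for Hmox1 (q = 0.36), the same folds as the library values give. The authors' deposited table for culture gives folds of 0.357 for Slc40a1 (q = 0.0306), 1.42 for Tfrc (q = 0.0155), 0.191 for Cd163 (q = 0.378) and 1.04 for Hmox1 (q = 0.102). All of these except Cd163 follow from the library values only after a second log2 is taken, while the plain differences of the log2 values give 0.0067 for Slc40a1, 5.32 for Tfrc and 1.28 for Hmox1. For Cd163 a second log2 has no value in the library with a negative log2 value. The deposited culture folds of Slc40a1, Tfrc and Hmox1 are therefore nearer to 1 than the changes in reads.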

How the data were processed

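RNA of 14 mouse libraries was sequenced (RNeasy Micro columns, TruSeq RNA v2 libraries, per the labels' protocols). TopHat2 2.0.13, bcl2fastq and build mm10 are named in the submitters' processing notes; for the counter, gene filter, normalization and strand use, each is not given in the sources used here, so reads of overlapping antisense genes cannot be told apart. The deposited library values are log2. From the values themselves, each is the log2 of 0.5 plus a whole number of reads, offset by fixed terms for the gene and the library, and whole reads were recovered for 9416 of 9474 genes (99.4%, largest residual 0.000979 under 100 reads); the other 58, Fth1 and Ftl1 among them, have log2 values only. The authors' deposited fold (a linear ratio), p-value and q-value were copied. The number of per-sample columns not used was 0.

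limma 3.58.1 (R 4.3.3) with a variance trend was fitted to all genes of each table, IL4 against control, and over all 14 libraries for the difference of the responses, two-sided, Benjamini-Hochberg adjusted over 9474 genes. It was tested on simulated data. Nothing in the labels says that replicates are separate cultures or animals; p-values then cover only the spread among these libraries, which may be technical. Replicate pairs differed by more than counting noise, with chi-square over degrees of freedom of 1.34 to 5.61. Ratios of reads carry exact 95% binomial intervals, for counting error only. The members and lists were chosen with earlier results of these data known. Named were the 4 genes, the 3 genes of smallest p per pathway list and comparison, and the 3 genes nearest to each member among those at or above the 25th percentile of level in both tables; other genes were named after their values were seen, and some genes that the rule names are not reported here. Alternatives were other scalings, priors, filters and variance models, voom on recovered reads, a replicate block, and leaving libraries out. List counts leave out the 4 genes.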

Additional observations from a re-analysis of the deposited data

Results flagged for a closer look

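For 3 of the 4 genes the IL4 response differed between culture and marrow by a test of the difference itself (limma over all 14 libraries, adjusted over 9474 genes, of which 23.1% passed). The difference, culture minus marrow on the log2 scale, was -7.29 for Slc40a1 (adjusted p = 0.000325), 4.56 for Tfrc (adjusted p = 2.13e-05) and -3.82 for Cd163 (adjusted p = 0.0104). Tfrc was higher in 4 of 4 culture IL4 libraries than in every culture control and lower in 3 of 3 marrow IL4 libraries than in every marrow control. Of all genes, 7.49% lay wholly higher with IL4 in culture and 22.1% wholly lower with IL4 in marrow. Cd163 did not pass in culture by itself (-1.48) and rose in marrow (2.33). The experiments differ in cell source, IL4 source and the presence of leukemia at once, and these cannot be told apart.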

How the results depend on the processing

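The culture changes of Slc40a1 and Tfrc, the marrow changes of Tfrc and Cd163, and the differences of the responses for those 3 genes kept their direction and side of the threshold under every alternative run. Leaving out each library in turn gave log2 fold changes of -8.10 to -6.42 for Slc40a1, 2.07 to 2.61 for Tfrc, -2.09 to -0.69 for Cd163 and 0.29 to 0.47 for Hmox1 in culture, -0.14 to 0.20, -2.26 to -2.07, 2.14 to 2.60 and 0.30 to 0.94 in marrow, and -8.17 to -6.49, 4.22 to 4.76, -4.42 to -3.02 and -0.58 to 0.062 for the differences. Slc40a1 in marrow turned to -0.14 without control 2 (limma adjusted p = 0.565), and the Hmox1 difference to 0.062 without marrow IL4 library 3 (adjusted p = 0.881), neither past the threshold. Cd163 in culture passed without replicate 4 of both groups (-2.25, adjusted p = 0.0303, chosen after seeing the data); it has no value under the filter on low genes. Hmox1 in culture passed after centring (0.72), quantile normalization (0.53), with a prior of 2 reads (0.35), with voom (0.35) and without replicate 4 of both groups (0.40), and in marrow with a prior of 2 reads (0.67) and with voom (0.75). The cause was not tested.

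Correlations of same-numbered deviations were low, -0.0645 to 0.0408 in culture and 0.0256 to 0.0981 in marrow. In marrow each control was nevertheless closest to the IL4 library of its own number. With 3 libraries a group, whether marrow libraries were paired cannot be decided from these values. With the replicate block only Hmox1 in culture changed its call (0.36, adjusted p = 0.0454). Centring gave, up and down in culture, 4 and 3 transport genes, 4 and 1 storage genes, 2 and 0 heme synthesis genes, 2 and 1 iron-sulfur genes, and in marrow 2 falling iron-sulfur genes. Without marrow IL4 library 3, 1 storage gene rose and 2 iron-sulfur genes fell. Over all genes centring gave 1365 up and 1205 down in culture, quantile normalization 1271 and 1324, against 754 and 3084 as deposited. In marrow 1086 genes fell, or 688 and 678 without control 2 or 3, and 635 rose, or 397 without IL4 library 3. Cd163, at 0 to 10 reads in culture, is limited by depth.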
